A study of Homo sapiens with 12 samples.

Results

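The cholesterol genes described here are 29 of the 60623 gene rows of a deposited count table, taken by gene symbol. No rule on measured values was applied, but these genes were listed with earlier results of these data known. They comprise 7 enzymes of the early steps from acetyl-CoA to farnesyl pyrophosphate, 11 enzymes from squalene to cholesterol, 4 genes of SREBP2 control, 4 of uptake and intracellular transport, and 3 of export and storage. Poly(A)-selected RNA was sequenced from 12 libraries in 4 groups of 3: SW480 cells given the pCMV6-HKDC1 plasmid, SW480 cells given the empty pCMV6-Entry vector, COLO320DM cells given pCMV6-HKDC1, and COLO320DM cells given pCMV6-Entry. SW480 and COLO320DM are established human colon cancer lines, and HKDC1 belongs to the hexokinases, which start glycolysis; here the CMV promoter of the plasmid drives it. The study asked which genes respond when HKDC1 is supplied in excess. Every group, the empty-vector groups included, was transfected with Lipofectamine and 10 µg of plasmid for 24 h and was then returned to its usual medium, which contains fetal bovine serum. How long after that the RNA was taken, and what share of the cells took up plasmid, are not given in the sources used here. The labels number the replicates 1 to 3 but do not say whether they were separate cultures, so the tests rest on sample-to-sample spread that may be technical.

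Cells make cholesterol from acetyl-CoA through mevalonate, isoprenoid pyrophosphates and squalene. SREBP2, the product of SREBF2, is a membrane-bound transcription factor of the endoplasmic reticulum: when sterols are scarce SCAP escorts it to the Golgi, where it is cut and freed to activate the genes of the synthesis enzymes, and when sterols are plentiful INSIG1 and INSIG2 hold SCAP back. INSIG1 is itself an SREBP2 target, so the pathway carries its own brake. Cholesterol taken up in lipoproteins leaves the lysosome through NPC1, ABCA1 and ABCG1 export it under the control of the oxysterol-sensing LXR receptors, and SOAT1 stores it as ester. Intestinal enterocytes take up dietary cholesterol through NPC1L1.

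Total counts ranged from 33790733 to 45451279 per library. HKDC1 reached between 12151 and 14231 CPM (counts scaled to the library total) in SW480 cells with the HKDC1 plasmid, against 34.1 to 35.5 CPM in SW480 cells with empty vector. In COLO320DM it lay between 6623 and 9858 CPM with the HKDC1 plasmid, against 0 to 0.0249 CPM with empty vector. Of 10 colon epithelial markers, 8 exceeded 1 CPM in every SW480 library and 6 in every COLO320DM library, with summed levels of 6568 to 8760 CPM in SW480 and 1647 to 1842 CPM in COLO320DM. In COLO320DM, CDX1 had no count, CDH1 stayed at or under 0.0962 CPM and KRT19 at or under 0.149 CPM. CDX2 lay between 1421 and 1565 CPM there and made up most of the COLO320DM sum. EPCAM had 1.417 to 2.332 CPM in COLO320DM, against 483.5 to 525.7 CPM in SW480. The leukocyte list summed to 0.797 to 1.39 CPM in SW480 and 32.0 to 43.6 CPM in COLO320DM, where PTPRC made up most of it. Neuroendocrine markers summed to at most 7.46 CPM in SW480 and 5.82 CPM in COLO320DM. The fibroblast list summed to 17.58 to 20.2 CPM in SW480 and 41.31 to 66.45 CPM in COLO320DM, where COL3A1 made up most of it. Hepatocyte markers summed to 16.89 to 69.14 CPM in SW480, mostly SERPINA1, and to at most 0.1776 CPM in COLO320DM. The endothelial list summed to at most 1.197 CPM in either line. In all 4 groups replicate 1 stood apart from replicates 2 and 3: chi-squared per degree of freedom, which is near 1 for sampling noise alone, was 24.5 to 82.9 between replicate 1 and the others and 3.18 to 10.1 between replicates 2 and 3.

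Promoter sequence of RefSeq (GRCh38.p14) was matched for 25 of the 29 genes, and the 5 windows shown are those of genes whose counts differed widely between lines and replicates, of the regulator SREBF2, and of CYP51A1, a synthesis gene that ran the other way. Each window holds the 250 bases before a RefSeq start, 5′ to 3′ on the gene's strand. Capitals mark CACNCCAC, the core of SREBP-type sterol elements, and CCAAT, the NF-Y motif, on either strand, so that CCAAT on the other strand reads ATTGG. HMGCS1, the synthase that makes HMG-CoA, has the window chr5:43313413-43313662 on the minus strand, and CYP51A1, lanosterol 14-alpha-demethylase, has chr7:92134478-92134727 on the minus strand. MSMO1, the methylsterol monooxygenase, has chr4:165327419-165327668, SREBF2 has chr22:41832855-41833104 and INSIG1 has chr7:155297628-155297877, all on the plus strand.
HMGCS1: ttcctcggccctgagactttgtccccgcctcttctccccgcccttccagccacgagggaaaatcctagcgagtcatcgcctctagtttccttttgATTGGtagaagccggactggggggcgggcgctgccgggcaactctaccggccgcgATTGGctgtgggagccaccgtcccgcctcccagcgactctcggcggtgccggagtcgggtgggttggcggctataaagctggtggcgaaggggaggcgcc
MSMO1: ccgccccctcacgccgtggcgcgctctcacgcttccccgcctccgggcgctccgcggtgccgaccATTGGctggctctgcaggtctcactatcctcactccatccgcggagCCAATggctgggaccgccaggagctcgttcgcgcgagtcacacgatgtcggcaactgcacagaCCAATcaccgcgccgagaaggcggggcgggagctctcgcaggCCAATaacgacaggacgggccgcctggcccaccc
SREBF2: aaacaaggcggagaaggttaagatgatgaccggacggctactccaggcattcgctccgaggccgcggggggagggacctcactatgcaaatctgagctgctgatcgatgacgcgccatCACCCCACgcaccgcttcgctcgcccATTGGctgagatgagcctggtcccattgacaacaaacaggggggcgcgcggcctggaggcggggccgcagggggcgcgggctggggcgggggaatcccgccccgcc
INSIG1: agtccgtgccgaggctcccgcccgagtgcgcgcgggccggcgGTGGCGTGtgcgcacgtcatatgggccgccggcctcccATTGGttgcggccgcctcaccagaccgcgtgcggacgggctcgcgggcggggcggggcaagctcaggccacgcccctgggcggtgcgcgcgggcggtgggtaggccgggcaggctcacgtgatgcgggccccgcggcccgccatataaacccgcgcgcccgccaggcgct
CYP51A1: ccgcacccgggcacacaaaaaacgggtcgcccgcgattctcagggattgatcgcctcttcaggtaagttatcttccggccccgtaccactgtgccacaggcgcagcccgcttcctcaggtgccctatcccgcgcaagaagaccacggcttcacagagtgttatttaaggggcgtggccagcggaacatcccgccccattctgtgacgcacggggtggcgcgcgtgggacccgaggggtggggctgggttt
The MSMO1 window holds 4 CCAAT motifs and the HMGCS1 window shown 2, while a second HMGCS1 window, at chr5:43313182-43313431, holds neither motif. The SREBF2 and INSIG1 windows each hold 1 CACNCCAC and 1 CCAAT, and the CYP51A1 window holds neither. That CYP51A1 window lies inside the counted gene, which begins at base 92134803 on the minus strand. The window of TM7SF2, a synthesis gene that also ran the other way, holds 1 CCAAT. Over the 31 windows of the 25 matched genes, CCAAT was found in 67.7%, against 32% of 35116 promoters of the same length, and CACNCCAC in 16.1%, against 4.87%. The 5 genes with CACNCCAC were IDI1, SC5D, SREBF2, INSIG1 and ABCA1. The GC box GGGCGG was found in 90.3% of the windows and 42.6% of all promoters, and the E-box CACGTG in 16.1% and 6.34%. The motif CACNCCAC was chosen after a longer form had matched 1 gene. A match is a run of letters and not a shown binding site.

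Levels of different genes were compared as CPM per kb of exon, here and below scaled by TMM factors. FDPS, the farnesyl pyrophosphate synthase at the branch point to sterols and isoprenoids, ranked 1 in 3 of the 4 groups and 2, after CYP51A1, in SW480 with the HKDC1 plasmid. It averaged 47.8 ± 1.58 CPM per kb in SW480 with the HKDC1 plasmid, 46.5 ± 1.88 in SW480 with empty vector, 73.4 ± 10.1 in COLO320DM with the HKDC1 plasmid and 70.3 ± 11.9 in COLO320DM with empty vector (SD, n = 3 each). Next in order with empty vector stood CYP51A1 at 45.3 ± 1.75 and ACAT2, the cytosolic thiolase of the first step, at 40.9 ± 3.22 CPM per kb in SW480. In COLO320DM with empty vector the next were EBP, the sterol isomerase, at 53.6 ± 6.80 and FDFT1, squalene synthase, at 44.2 ± 14.4 CPM per kb. With empty vector, FDPS and CYP51A1 differed by less than their SDs in SW480, and EBP and FDFT1 by less than the SD of FDFT1 in COLO320DM. FDPS, CYP51A1, ACAT2 and EBP share exon bases with other counted genes, as given below, so their order is uncertain. ABCA1, NPC1L1 and ABCG1 were the 3 lowest in every group.

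**Figure D1:**
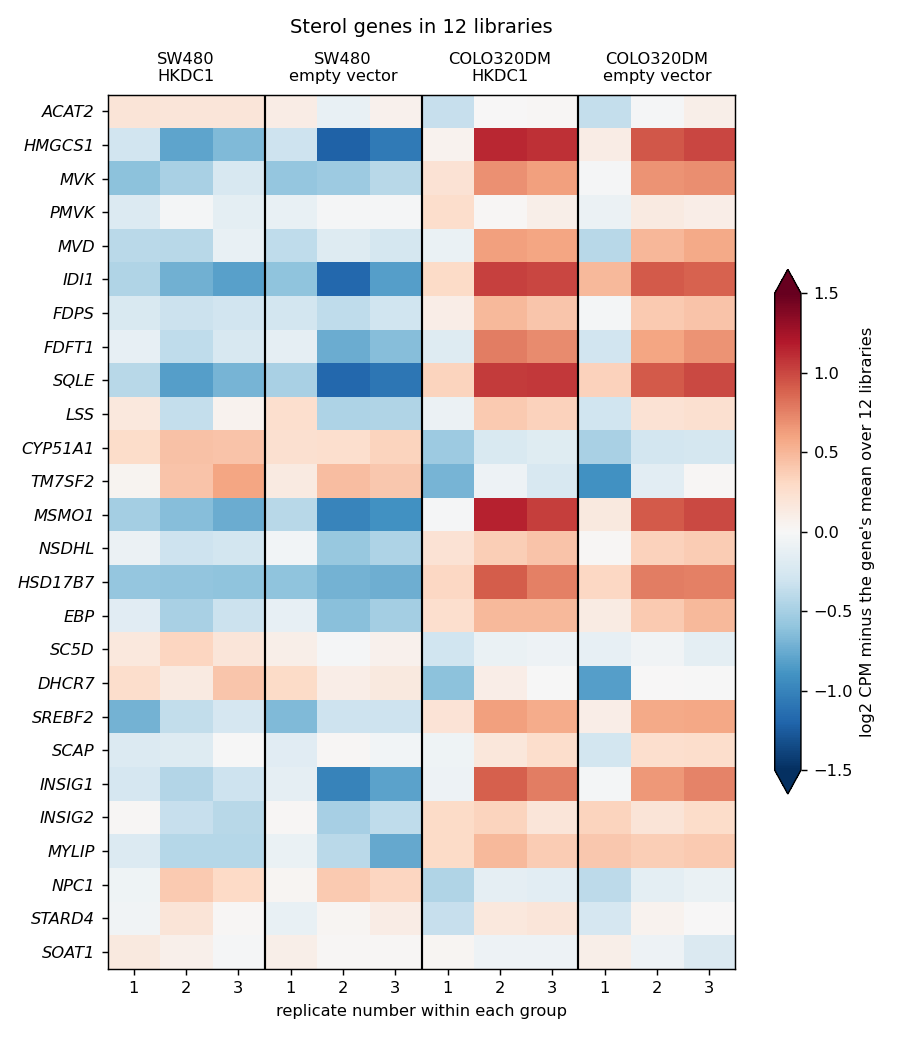
Heat map of 26 of the 29 genes in 12 libraries, as log2 CPM minus each gene's mean over all libraries (red above, blue below), with ABCA1, ABCG1 and NPC1L1 left out for their low counts. Columns run by group and replicate number, and most synthesis rows are blue in SW480 and red in COLO320DM, with replicate 1 paler in both lines for HMGCS1, SQLE, MSMO1 and INSIG1.

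Synthesis genes were mostly lower in SW480 than in COLO320DM, while the export gene ABCG1 and the uptake gene NPC1L1 were higher in SW480. With the HKDC1 plasmid, edgeR called 23 of the 29 genes between lines at an adjusted p under 0.05, 7 higher and 16 lower in SW480, in a table in which 70.8% of the 23684 genes tested were called (37.4% higher, 33.5% lower). With empty vector it called 21, 6 higher and 15 lower, against 71.6% of all genes (37.3% higher, 34.3% lower). The members' median log2 difference was -0.50 with the HKDC1 plasmid and -0.54 with empty vector, where the median of all genes was 0.05 and 0.04 in that order. In bulk RNA, fewer cells that express a gene and less RNA per cell cannot be told apart. All 29 genes passed the filter on low counts. ABCA1 and NPC1L1 passed it only through SW480 and so had to differ, and without them 5 members were called higher with the HKDC1 plasmid and 4 with empty vector. The share called lies near that of the whole table. By direction, 12 of the 18 synthesis genes were lower and 3 higher with the HKDC1 plasmid, and 11 were lower and 2 higher with empty vector.

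Among the early enzymes, HMGCS1 had 111.3, 78.6 and 86.0 CPM in SW480 with the HKDC1 plasmid, against 140.5, 296.7 and 290 CPM in COLO320DM with the HKDC1 plasmid. With empty vector it had 109.8, 58.6 and 65.0 CPM in SW480, against 146.4, 258.9 and 271 CPM in COLO320DM. All 6 SW480 libraries lay below all 6 of COLO320DM, and the log2 difference was -1.40 ± 0.31 with the HKDC1 plasmid and -1.54 ± 0.32 with empty vector (SE; edgeR adjusted p = 0.00136 and 0.000676). IDI1, which isomerises isopentenyl pyrophosphate, had 42, 35.0 and 32.8 CPM in SW480 with the HKDC1 plasmid, against 70.0, 117.2 and 114.7 CPM in COLO320DM. With empty vector IDI1 had 37.8, 25.4 and 32.4 CPM in SW480, against 80.6, 108.6 and 106 CPM in COLO320DM. Its groups did not overlap either, and its log2 difference was -1.46 ± 0.20 with the HKDC1 plasmid and -1.63 ± 0.20 with empty vector (edgeR adjusted p = 2.31e-05 and 8.36e-06). MVK, mevalonate kinase, was lower by a log2 difference of -0.95 ± 0.18 with the HKDC1 plasmid (edgeR adjusted p = 0.000379) and was called with empty vector too (edgeR adjusted p = 0.000244). MVD, mevalonate diphosphate decarboxylase, and FDPS were also lower, at smaller log2 differences of -0.56 and -0.60 with empty vector. The MVD call with empty vector (edgeR adjusted p = 0.045) was lost when any SW480 library or COLO320DM replicate 2 or 3 was left out, at -0.39 to -0.60 (edgeR adjusted p = 0.0688 to 0.185), and that with the HKDC1 plasmid without COLO320DM replicate 2 or 3, at -0.60 and -0.61 (edgeR adjusted p = 0.058 and 0.0552). With empty vector the MVD call was also lost with RLE scaling or no count filter (edgeR adjusted p = 0.0507 and 0.126). Leaving out HKDC1 and its antisense partner ended it too (edgeR adjusted p = 0.0511), as did limma-voom (limma-voom adjusted p = 0.0889). No count filter also ended the MVD call with the HKDC1 plasmid (edgeR adjusted p = 0.0572). ACAT2 and PMVK, phosphomevalonate kinase, were not called with empty vector, at log2 differences of 0.11 ± 0.12 and -0.10 ± 0.10. PMVK was called with the HKDC1 plasmid, at -0.25 ± 0.10 (edgeR adjusted p = 0.0365), and ACAT2 was not, at 0.28 ± 0.12 (0.0568). Leaving out replicate 1 or replicate 3 of either line ended the PMVK call, at -0.18 to -0.29 (edgeR adjusted p = 0.0563 to 0.158).

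Downstream of squalene, SQLE, the squalene epoxidase that performs the first oxygen-requiring step, had 72.85, 54.95 and 59.8 CPM in SW480 with the HKDC1 plasmid, against 122.4, 201.4 and 203.6 CPM in COLO320DM. With empty vector it had 69.5, 43.1 and 45.9 CPM in SW480, against 123.6, 183.5 and 192.7 CPM in COLO320DM. No SW480 library reached a COLO320DM library, and the log2 difference was -1.49 ± 0.23 with the HKDC1 plasmid and -1.66 ± 0.24 with empty vector (edgeR adjusted p = 7.58e-05 and 2.99e-05). MSMO1 had 41.2, 37.7 and 35.2 CPM in SW480 with the HKDC1 plasmid, against 58.1, 131.4 and 121 CPM in COLO320DM, a log2 difference of -1.44 ± 0.28 (edgeR adjusted p = 0.00046). With empty vector MSMO1 had 44.1, 29.6 and 31.3 CPM in SW480, against 64.9, 111.5 and 116.8 CPM in COLO320DM, a log2 difference of -1.48 ± 0.28 (edgeR adjusted p = 0.000367). As for SQLE, the lines did not overlap, and the gap was narrowest in replicate 1. HSD17B7, the sterol ketoreductase, had 15.9, 15.8 and 15.6 CPM in SW480 with the HKDC1 plasmid, against 29.6, 44.6 and 40.1 CPM in COLO320DM. Its log2 difference was -1.27 ± 0.15 with the HKDC1 plasmid and -1.31 ± 0.15 with empty vector (edgeR adjusted p = 6.4e-06 and 4.68e-06), and its near-identical copy HSD17B7P2 held 16.23% as many counts. FDFT1 was lower as well, at -0.73 ± 0.27 with the HKDC1 plasmid and -0.87 ± 0.27 with empty vector (edgeR adjusted p = 0.0263 and 0.0105), though its libraries overlapped between lines, with up to 161.3 CPM in SW480 and down to 144.4 CPM in COLO320DM. The FDFT1 call was lost with the HKDC1 plasmid without replicate 2 or 3 of either line, at -0.59 to -0.74 (edgeR adjusted p = 0.055 to 0.0965), and with empty vector without COLO320DM replicate 3, at -0.70 (edgeR adjusted p = 0.0521). With no count filter the FDFT1 call was lost with the HKDC1 plasmid and with empty vector (edgeR adjusted p = 0.102 and 0.0549). NSDHL, the sterol 4-alpha-carboxylate dehydrogenase, was lower at -0.57 with the HKDC1 plasmid and -0.59 with empty vector, and EBP at -0.74 and -0.75 in the same order. CYP51A1 and TM7SF2, the enzyme pair that demethylates lanosterol and reduces its product, ran the other way. CYP51A1 had 159.5, 179.2 and 177.7 CPM in SW480 with the HKDC1 plasmid, against 90.6, 112.6 and 116 CPM in COLO320DM, a log2 difference of 0.69 ± 0.11 (edgeR adjusted p = 5.6e-05). With empty vector CYP51A1 had 155.2, 157.4 and 166.8 CPM in SW480, against 94.1, 109.2 and 109.4 CPM in COLO320DM, a log2 difference of 0.62 ± 0.11 (edgeR adjusted p = 0.000151). No library of 1 line reached those of the other. TM7SF2 differed by 0.69 ± 0.23 with the HKDC1 plasmid and 0.64 ± 0.23 with empty vector (edgeR adjusted p = 0.0152 and 0.0207). Its call was lost with the HKDC1 plasmid without COLO320DM replicate 1 or SW480 replicate 3, at 0.53 and 0.56, and with empty vector without COLO320DM replicate 1, SW480 replicate 2 or SW480 replicate 3, at 0.41 to 0.61 (edgeR adjusted p = 0.054 to 0.0816). LSS, which closes the sterol rings, and DHCR7, the last reductase of the route through 7-dehydrocholesterol, were not called with either plasmid: LSS differed by -0.27 ± 0.21 and -0.25 ± 0.21, and DHCR7 by 0.42 ± 0.21 and 0.41 ± 0.21, with HKDC1 and empty vector in that order. Every SW480 library of DHCR7 still exceeded every COLO320DM library, narrowly, at 110.9 CPM and above against 110.5 CPM and below. The DHCR7 log2 difference was 0.99 in replicate 1 and 0.18 in replicates 2 and 3. SC5D, the lathosterol desaturase, was called with the HKDC1 plasmid only, at 0.37 ± 0.09 (edgeR adjusted p = 0.00152), against 0.15 ± 0.09 with empty vector, and the difference between these was not called.

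**Figure D2:**
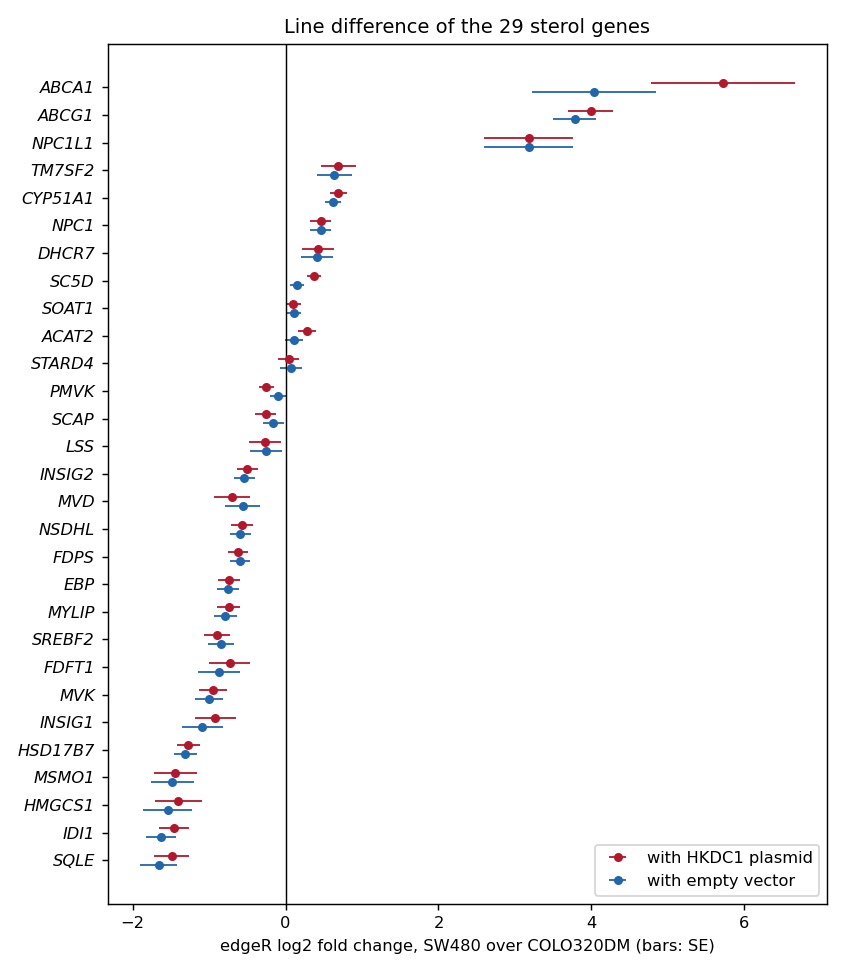
Log2 fold change of SW480 over COLO320DM for the 29 genes, sorted by the empty-vector value, with HKDC1 plasmid in red and empty vector in blue (points, edgeR estimates; bars, SE). SQLE, IDI1, HMGCS1, MSMO1 and HSD17B7 lie below -1.2, and ABCA1, ABCG1 and NPC1L1 lie above 3.

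Of the 4 control genes, 3 were lower in SW480. SREBF2, itself under SREBP2 control, had 132, 168 and 181.7 CPM in SW480 with the HKDC1 plasmid, against 248.7, 330.9 and 317.3 CPM in COLO320DM, a log2 difference of -0.90 ± 0.17 (edgeR adjusted p = 0.000292). With empty vector it had 136.4, 174.4 and 174.6 CPM in SW480, against 232.4, 319.7 and 324.7 CPM in COLO320DM, a log2 difference of -0.85 ± 0.17 (edgeR adjusted p = 0.000425). All SW480 libraries lay below all COLO320DM libraries, in replicate 1 and in the others. INSIG1 had 51.8, 45.3 and 49.6 CPM in SW480 with the HKDC1 plasmid, against 58.4, 114.1 and 104.4 CPM in COLO320DM. With empty vector INSIG1 had 55.95, 30.7 and 35.4 CPM in SW480, against 60.05, 96.2 and 102.8 CPM in COLO320DM. Its groups were separated by a narrow gap, set by replicate 1, and its log2 difference was -0.92 ± 0.27 with the HKDC1 plasmid and -1.09 ± 0.27 with empty vector (edgeR adjusted p = 0.00768 and 0.00259). INSIG2, the isoform that is not driven by SREBP2 in the same way, was lower at -0.50 ± 0.14 with the HKDC1 plasmid and -0.54 ± 0.14 with empty vector (edgeR adjusted p = 0.00611 and 0.00381). SCAP, the escort protein, was not called, at -0.26 ± 0.14 with the HKDC1 plasmid and -0.16 ± 0.14 with empty vector (edgeR adjusted p = 0.106 and 0.294).

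Uptake and export genes went in both directions. NPC1L1 had 0.938, 2.13 and 2.69 CPM in SW480 with the HKDC1 plasmid, against 0.0732, 0.364 and 0.203 CPM in COLO320DM. With empty vector NPC1L1 had 0.727, 2.29 and 1.76 CPM in SW480, against 0.212, 0.0953 and 0.208 CPM in COLO320DM. The lowest SW480 library exceeded the highest COLO320DM library. On summed counts, NPC1L1 had 214 in SW480 and 23 in COLO320DM with the HKDC1 plasmid, a depth-scaled ratio of 9.33 (95% interval 6.06 to 15), and 192 and 22 with empty vector, a ratio of 9.22 (5.92 to 15.1); these intervals cover counting error only. ABCG1, a half-transporter that loads sterol onto HDL, had 14.5, 12.75 and 12.25 CPM in SW480 with the HKDC1 plasmid, against 1.17, 0.896 and 0.376 CPM in COLO320DM. With empty vector ABCG1 had 14.1, 14.55 and 13.55 CPM in SW480, against 0.919, 0.786 and 1.365 CPM in COLO320DM. Every SW480 library exceeded every COLO320DM library, with log2 differences of 3.99 ± 0.29 with the HKDC1 plasmid and 3.78 ± 0.28 with empty vector (edgeR adjusted p = 3.78e-08 and 4.46e-08). ABCA1, the transporter that starts HDL formation, was scarce: its 3 SW480 libraries with the HKDC1 plasmid summed to 71 counts, against 1 count in COLO320DM, a ratio of 71.2 with an exact counting interval of 12.4 to 2.85e+03. With empty vector ABCA1 had 53 counts in SW480, against 3 in COLO320DM, a ratio of 18.7 (6.05 to 93.4). MYLIP, a ligase that marks lipoprotein receptors for degradation, was lower in SW480, at -0.74 ± 0.15 with the HKDC1 plasmid and -0.79 ± 0.15 with empty vector (edgeR adjusted p = 0.000588 and 0.000325). NPC1 was higher, at 0.46 ± 0.14 in both comparisons (edgeR adjusted p = 0.00965 and 0.00897), and was not called with the HKDC1 plasmid without SW480 replicate 2, at 0.35 (edgeR adjusted p = 0.0652). STARD4, a soluble sterol carrier, and SOAT1 were not called: STARD4 differed by 0.04 ± 0.14 with the HKDC1 plasmid and 0.07 ± 0.14 with empty vector, and SOAT1 by 0.10 ± 0.10 and 0.11 ± 0.09 in the same order.

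**Figure D3:**
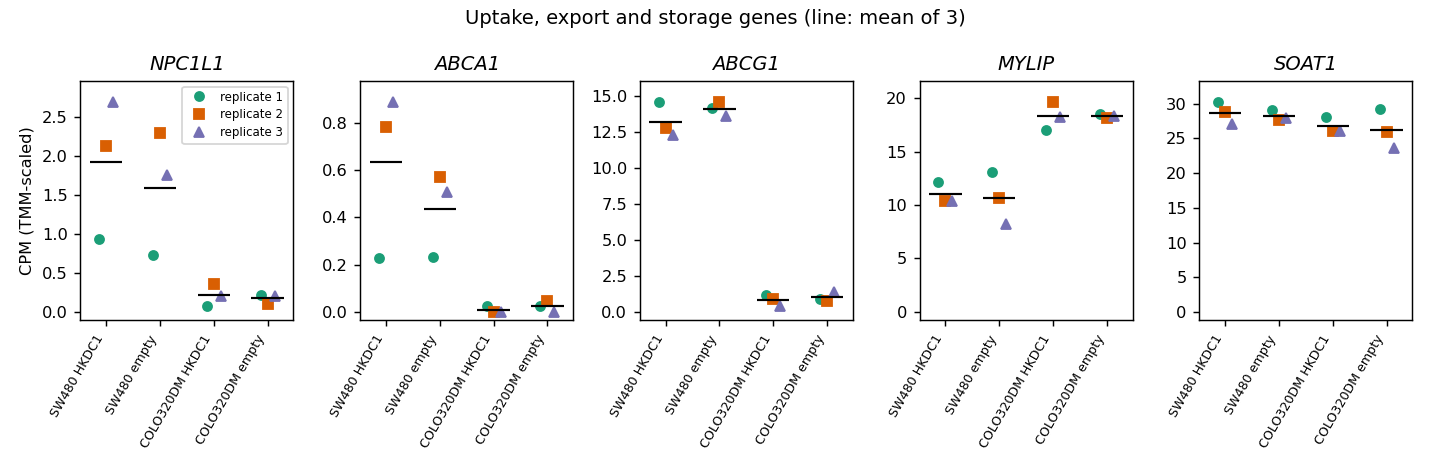
CPM of NPC1L1, ABCA1, ABCG1, MYLIP and SOAT1 in each library (points, shaped by replicate number; line, mean of 3), with SW480 groups left of COLO320DM groups. NPC1L1, ABCA1 and ABCG1 are near 0 in COLO320DM, MYLIP is higher there, and SOAT1 overlaps.

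Over all 12 libraries, the 6 of SW480 lay below the 6 of COLO320DM for 13 genes and above them for 8, with overlap for 8. Of all genes tested 31.1% lay wholly below and 34.2% wholly above. The genes above include ABCA1 and NPC1L1, which passed the filter on low counts only through SW480 and so had to differ. The size of the line difference varied with the replicate number. In replicate 1 alone the mean HMGCS1 level of SW480 over that of COLO320DM was -0.38 on the log2 scale, against -1.95 in replicates 2 and 3. For SQLE these values were -0.79 and -1.94, for MSMO1 -0.53 and -1.85, and for INSIG1 -0.14 and -1.38. FDFT1 changed direction, at 0.11 in replicate 1 and -1.17 in replicates 2 and 3, and so did LSS, at 0.40 and -0.59, and STARD4, at 0.21 and -0.01. SREBF2 gave -0.84 and -0.89, ABCG1 3.78 and 3.96, and CYP51A1 0.77 and 0.61, and these 3 kept close to the same size. Over the 18 synthesis genes the median was -0.22 in replicate 1 and -0.79 in replicates 2 and 3, with 11 and 13 genes lower in SW480. These are values of 2 libraries a line in replicate 1 and of 4 a line in the others, and carry no test. With replicates 2 and 3 only, an alternative chosen after seeing the data, edgeR called 26 members with the HKDC1 plasmid and 24 with empty vector. LSS was then called at -0.52 with the HKDC1 plasmid and -0.67 with empty vector (edgeR adjusted p = 8.82e-06 and 2.25e-07), and SCAP at -0.32 and -0.26 in the same order (edgeR adjusted p = 5.84e-05 and 0.000687). DHCR7, at 0.22, and ACAT2, at 0.16, were called with the HKDC1 plasmid only and SOAT1, at 0.18, with empty vector only (edgeR adjusted p = 0.00364, 0.0272 and 0.0441), while PMVK was no longer called with the HKDC1 plasmid.

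Of 54 further genes around the pathway, 52 passed the filter on low counts, and 24 were higher and 19 lower in SW480 with the HKDC1 plasmid, 23 and 17 with empty vector. Of all genes tested 37.4% were higher and 33.5% lower with the HKDC1 plasmid, and 37.3% and 34.3% with empty vector. Among the 52, SOAT2, CH25H and CYP27A1 passed the filter only through SW480, and CYP7B1 and CYP46A1 only through COLO320DM. These genes had to differ, and the counts of genes called include them. The median log2 difference of the 52 was 0.27 with the HKDC1 plasmid and 0.20 with empty vector, where that of the 29 genes was below 0. The genes just named, of oxysterol and ester metabolism, had ratios of summed counts, or lower bounds on them, of more than 10-fold. With the HKDC1 plasmid the counting intervals of CYP27A1 and CYP46A1 reached below 10-fold. SOAT2, the esterifying enzyme of intestine and liver, had 441 counts in SW480 and 2 in COLO320DM with the HKDC1 plasmid, a ratio of 221 (95% counting interval 60.8 to 1.83e+03). With empty vector SOAT2 had 540 counts in SW480 and none in COLO320DM, at least 190-fold higher in SW480 when 3 counts over the group are taken as the floor. CYP7B1, an oxysterol hydroxylase, had no count in SW480 and 202 with the HKDC1 plasmid and 230 with empty vector in COLO320DM, at least 67.1-fold and 72.5-fold lower in SW480 against the same floor. CH25H, which makes 25-hydroxycholesterol, had 78 counts in SW480 and 1 in COLO320DM with the HKDC1 plasmid, a ratio of 78.2 (13.6 to 3.13e+03), and 83 and 1 with empty vector, a ratio of 87.7 (15.3 to 3.51e+03). CYP27A1, the sterol 27-hydroxylase, had 129 counts in SW480 and 7 in COLO320DM with the HKDC1 plasmid, a ratio of 18.5 (8.72 to 46.9), and 170 and 7 with empty vector. CYP46A1, the 24-hydroxylase best known from neurons, had 3 counts in SW480 and 35 in COLO320DM with the HKDC1 plasmid, a COLO320DM over SW480 ratio of 11.6 (95% counting interval 3.67 to 59.1). HSD3B7, a bile acid synthesis enzyme, was higher in SW480 by 2.39 ± 0.28 with the HKDC1 plasmid and 2.37 ± 0.28 with empty vector, and SMPDL3A, an LXR target, by 2.22 ± 0.29 and 2.06 ± 0.28 in the same order (log2, SE; edgeR adjusted p = 5.69e-06 and 5.81e-06, 1.52e-05 and 2.23e-05). Both proteases that cut SREBP2 were lower: MBTPS1 differed by -1.15 ± 0.07 with the HKDC1 plasmid and -1.05 ± 0.07 with empty vector, and MBTPS2 by -1.01 ± 0.13 and -1.03 ± 0.13 in the same order. SREBF1, the gene of the lipogenic SREBP1, was higher, at 1.12 ± 0.20 with the HKDC1 plasmid and 1.19 ± 0.20 with empty vector.

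In COLO320DM replicate 1 lay below the others for 16 of the 18 synthesis genes. In SW480 it lay above them for 9 of 18 and below for 2, with overlap for 7. In COLO320DM both replicate 1 libraries lay below all 4 libraries of replicates 2 and 3 for 21 of the 29 genes, 16 of them synthesis genes, while 21.3% of all genes tested did so. MSMO1 had 58.1 and 64.9 CPM in replicate 1 with the HKDC1 plasmid and empty vector, against 111.5 to 131.4 CPM in replicates 2 and 3, a log2 ratio of means of -0.97. HMGCS1 gave -0.96, FDFT1 -0.92, INSIG1 -0.82, MVD -0.81 and DHCR7 -0.74. The median of the 18 synthesis genes was -0.53 in COLO320DM, where genes over 1 CPM had a median of 0.00 and their 5th and 95th percentiles were -0.45 and 0.36. SOAT1 was the only one of the 29 wholly above. In SW480 both replicate 1 libraries lay above the other 4 for 13 genes and below for 7, against 27.1% and 28.4% of all genes tested. HMGCS1 had 111.3 and 109.8 CPM in replicate 1 of SW480, against 58.6 to 86.0 CPM in replicates 2 and 3, a log2 ratio of 0.62. LSS gave 0.49, SQLE 0.48, INSIG2 0.43 and INSIG1 0.42. The median of the 18 synthesis genes was only 0.07 in SW480. Genes over 1 CPM had a median of 0.03 there, and their 5th and 95th percentiles were -0.71 and 0.58. NPC1L1, at -1.41, and SREBF2, at -0.38, were wholly below in SW480. Below in COLO320DM and above in SW480 were 10 genes, against 3.85% of all genes tested, and 0 had the opposite pattern, against 3.21%; MVK, TM7SF2, SREBF2, NPC1 and STARD4 were below in both lines. INSIG1 per kb stood to INSIG2 per kb at 1.85 and 2 in replicate 1 of SW480 with HKDC1 and empty vector, and at 1.74 and 1.72 in replicate 1 of COLO320DM. In replicates 2 and 3 the ratio was 1.58 to 2.4 in SW480 and 3.04 to 3.33 in COLO320DM. What replicate 1 shared, such as a passage or a day, is not given in the sources used here, and its part in these values was not tested.

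**Figure D4:**
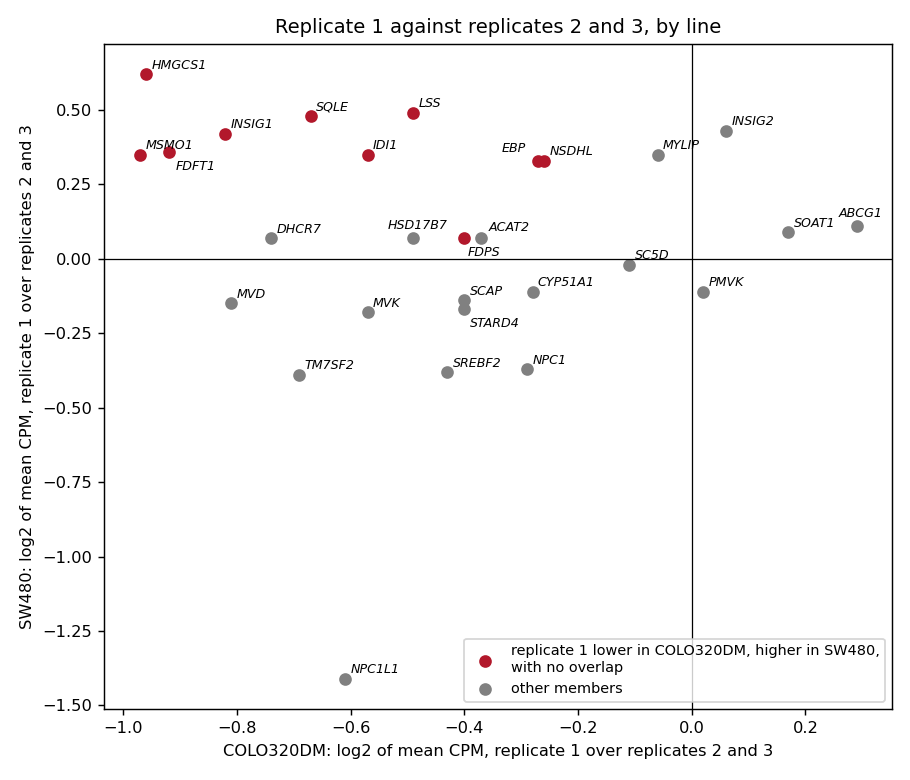
Log2 ratio of mean CPM in replicate 1 over replicates 2 and 3, with COLO320DM across and SW480 upward, for 28 genes (ABCA1 left out for its 0 to 2 counts in COLO320DM libraries). Red marks the 10 genes below in COLO320DM and above in SW480 with no overlap, from HMGCS1 at -0.96 and 0.62 to FDPS at -0.40 and 0.07.

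None of the 29 genes passed the edgeR test for the HKDC1 plasmid when replicate numbers were not used. In SW480 edgeR called 0 of the 29 genes between the HKDC1 plasmid and empty vector, where 0.0127% of all genes tested were called, and in COLO320DM it called 0, where 0.00844% were called. No member had an unadjusted p under 0.05 in edgeR in either line, and DESeq2 and limma-voom also called 0, each with 1 member at an unadjusted p under 0.05 in SW480 and 0 in COLO320DM. The 18 synthesis genes had a median log2 difference of 0.11 in SW480, with 16 above 0, and of 0.07 in COLO320DM, with 15 above 0, against medians of 0.00 and -0.00 for all genes. In SW480 the smallest p belonged to SC5D, with 55.25, 61.75 and 56.35 CPM with the HKDC1 plasmid, against 52.4, 48.8 and 51.6 CPM with empty vector. The SC5D libraries did not overlap, and its log2 difference was 0.18 ± 0.09 (edgeR adjusted p = 1). The share of all genes without overlap between plasmids was not counted, so the separation of SC5D is a description only. ACAT2 differed by 0.15 ± 0.12, SQLE by 0.24 ± 0.23 and ABCA1 by 0.53 ± 0.52 in SW480, all with an edgeR adjusted p of 1. In COLO320DM LSS differed by 0.16 ± 0.21, PMVK by 0.08 ± 0.10, ABCG1 by -0.31 ± 0.31 and ABCA1, on 1 count with the HKDC1 plasmid and 3 with empty vector, by -1.14 ± 1.55 (edgeR adjusted p = 1 for each). The difference of the plasmid effects, SW480 minus COLO320DM, was called for 0 of 29, against 0.00844% of all genes. Its smallest p values were those of SC5D at 0.23 ± 0.12, PMVK at -0.16 ± 0.14, ACAT2 at 0.17 ± 0.17 and ABCA1 at 1.67 ± 1.69 (edgeR adjusted p = 1 for each). The SE of a synthesis gene was up to 0.31 within a line and up to 0.44 for the difference of the plasmid effects, which limits the differences that could be detected at this spread between replicates.

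The replicate 1 libraries of a line deviated together, while replicates 2 and 3 correlated about as highly across numbers as within them. The data set replicate 1 apart but do not show that replicates 2 and 3 form separate pairs. The plasmid was also compared within replicate numbers, with the pairs of replicates 2 and 3 resting on the labels alone. With the replicate number as a block, edgeR called 3 of the 29 genes in SW480, all higher with the HKDC1 plasmid, where 0.760% of all genes were called in either direction and 0.165% as higher. FDFT1 had 161.3, 135.2 and 148.9 CPM with the HKDC1 plasmid, against 160, 104.6 and 112.4 CPM with empty vector, and a blocked log2 difference of 0.26 ± 0.06 (edgeR adjusted p = 0.0283). SQLE acts on the squalene that FDFT1 makes, and HMGCS1 acts upstream of both. SQLE differed by 0.26 ± 0.06 and HMGCS1 by 0.28 ± 0.07 (edgeR adjusted p = 0.0282 and 0.0319). The pair log2 ratios of HMGCS1 were 0.02, 0.42 and 0.41, those of FDFT1 0.01, 0.37 and 0.41, and those of SQLE 0.07, 0.35 and 0.38. INSIG1 had pair ratios of -0.11, 0.56 and 0.49 and was not called, though it was when no count filter was applied, at 0.30 (edgeR adjusted p = 0.0019). The 18 synthesis genes had pair medians of -0.01, 0.17 and 0.17 in SW480, with 9 genes higher and 1 lower in all 3 pairs. In COLO320DM the pair medians were 0.12, 0.10 and 0.03, with 6 genes higher and 0 lower in all 3 pairs. The block called 0 of 29 there, against 0.0760% of all genes, with 1 member at an unadjusted p under 0.05. The plasmid effects of the lines were not called as different for any of the 29 with the block, where 0.0422% of all genes were and 4 members had an unadjusted p under 0.05. The shares of all genes with 3 pairs in 1 direction, or with an unadjusted p under 0.05, were not counted. The counts of members of these kinds are therefore a description only.

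The 3 calls in SW480 rested on replicates 2 and 3. Without SW480 replicate 1 the blocked edgeR test called 5 genes, HMGCS1 at 0.40, FDFT1 at 0.37, SQLE at 0.35, LSS at 0.29 and INSIG1 at 0.51 (adjusted p = 2.82e-05 to 0.0429), and INSIG1 was then also called in the difference between lines, at 0.42 (edgeR adjusted p = 0.0341). Without SW480 replicate 2 or without replicate 3 it called 0, with log2 differences of 0.19 to 0.21 for the 3 genes (edgeR adjusted p = 0.243 to 0.907). DESeq2 with the block called the same 3 genes, and limma-voom with the block called 0, at adjusted p of 0.105 to 0.124. Of the 54 further genes, 0 were called between plasmids in either line by edgeR, with or without the block.

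**Figure D5:**
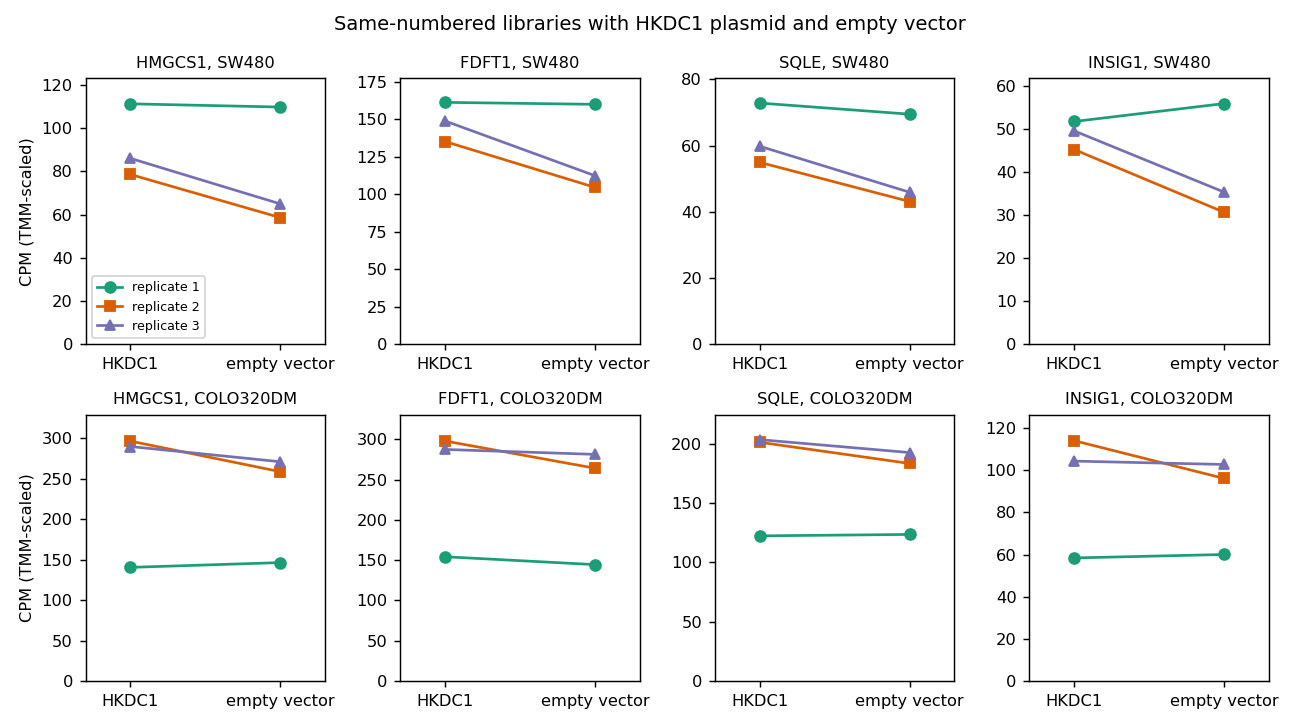
CPM of HMGCS1, FDFT1, SQLE and INSIG1 with the HKDC1 plasmid (left) and empty vector (right) in SW480 (upper row) and COLO320DM (lower row), with a line for each replicate number. In SW480 the lines of replicates 2 and 3 are higher on the HKDC1 side and the line of replicate 1 is nearly flat for HMGCS1, FDFT1 and SQLE.

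The deposited counts are not stated to use strand, so reads shared by overlapping genes cannot be assigned. CYP51A1 shares 80.6% of its exon bases with ENSG00000285772 on the same strand, which held 96.55% as many counts, and EBP shares 36.4% with ENSG00000286268. HMGCS1 shares 37.7% of its bases with the antisense gene ENSG00000261604, which held 26.05% as many counts, and FDPS, ACAT2 and IDI1 share 18.6%, 17.2% and 14.8% with RUSC1-AS1, TCP1 and IDI2-AS1. The overlapping genes held 71.38% as many counts as EBP, 67.57% as FDPS, 339.65% as ACAT2 and 16.21% as IDI1. How far the values of these 6 genes include shared reads is not known. MVK, NPC1 and STARD4 share 3.5%, 6.4% and 2.2% of their bases with MMAB, RMC1 and STARD4-AS1, which held 139.5%, 50.67% and 88.66% as many counts.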

How the data were processed

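Poly(A) RNA of 12 libraries was measured by RNA-seq. The authors deposited 1 table of whole-number counts per gene, with exon positions and merged exon length, per the file headers; per the submitters' processing notes, HISAT2 2.1.0, limma and GRCh38 were used, with no role or order given, while the counting tool, its strand setting and the annotation release are not given in the sources used here. From these counts, genes were kept with filterByExpr (minimum count 10, total 15; 23684 genes), scaled by TMM and tested with edgeR 4.0.16 in R 4.3.3 by its quasi-likelihood F test over 4 group means of all 12 libraries (8 residual degrees of freedom), with Benjamini-Hochberg adjustment over all genes tested and a threshold of 0.05. SE is the size of the log2 difference divided by the root of F. DESeq2 1.42.0, limma-voom (limma 3.58.1), other scalings, no filter, single libraries left out, and replicates 2 and 3 alone were tried, and the code was tested on simulated data. Totals of 33790733 to 45451279 counts set the precision.

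The replicate number within a line was used as a block in a second fit (4 residual degrees of freedom). Over all genes, libraries of 1 number deviated from their group means together, with correlations of 0.72, 0.44 and 0.31 in SW480 and 0.40, 0.13 and 0.12 in COLO320DM, from the data and not from the labels; replicates 2 and 3 also correlated with each other across numbers. The 29 genes, the gene lists and the markers were chosen with earlier results of these data known. Fitted values are given for members called, for the 4 members of smallest p per plasmid comparison, and, between lines, for members called with a fold of at least 2 and members not called; other genes named were picked after their values were seen.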

Additional observations from a re-analysis of the deposited data

Results flagged for a closer look

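In 10 genes both replicate 1 libraries of a line lay below all of replicates 2 and 3 in COLO320DM and above all of them in SW480, and the difference between the lines was not tested. The log2 ratio of replicate 1 over replicates 2 and 3, as SW480 minus COLO320DM, was 1.58 for HMGCS1, 1.32 for MSMO1, 1.28 for FDFT1, 1.24 for INSIG1, 1.15 for SQLE, 0.98 for LSS, 0.91 for IDI1, 0.61 for EBP, 0.59 for NSDHL and 0.47 for FDPS. Of all genes tested, 3.85% showed this pattern and 3.21% the opposite one.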

How the results depend on the processing

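For SW480, the count of members called between plasmids was 0 without the block, 3 with the replicate block and 4 with replicates 2 and 3 only, an alternative chosen after seeing the data (HMGCS1, FDFT1, SQLE and INSIG1). Within the blocked fit it was 4 with no count filter (INSIG1 added), 0 with limma-voom and 0 to 5 with a pair left out, and for the difference between lines 0 to 1. The block moved no other count of members called by more than 1.5 times, while calls among all genes between plasmids were 180 with it and 3 without it in SW480, and 18 with it and 2 without it in COLO320DM. Across lines same-numbered libraries share only a number, and a block on it gave 24 members called with the HKDC1 plasmid (ACAT2 and SCAP added, FDFT1 lost) and 20 with empty vector (FDFT1 lost), against 23 and 21 without it, and 2 lower genes in the isoprenoid branch in both, against 1. No count filter gave 20 and 19, and replicates 2 and 3 only 26 and 24. Leaving out libraries gave 20 to 22 and 19 to 21. 4 members that were not called changed sign: ACAT2 between lines with empty vector (-0.01 to 0.20 leaving out libraries, -0.04 with replicates 2 and 3 only), STARD4 between lines with HKDC1 (-0.12 to 0.12, and -0.07 with replicates 2 and 3 only) and with empty vector (-0.02 to 0.14), ABCG1 between plasmids in COLO320DM (-0.68 to 0.02), and PMVK there (-0.06 with replicates 2 and 3 only); the cause was not tested. Of the values for the single genes that the naming rule picked, 588 kept their direction and their side of the threshold under an alternative, 16 passed it, 9 lost it and 8 changed sign. LSS and SCAP between lines with empty vector were called without 1 replicate 1 library, at -0.52 without that of SW480 and -0.32 without that of COLO320DM (edgeR adjusted p = 0.0217 and 0.018). Counts limit ABCA1 and NPC1L1 in COLO320DM.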

Other observations

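Around the pathway, the SREBP-processing and sterol-sensing list of 12 genes had 5 higher and 6 lower in SW480 than in COLO320DM with the HKDC1 plasmid, and 4 and 6 with empty vector. Log2 differences follow as a pair, with the HKDC1 plasmid and then with empty vector. TMEM97, a sterol-binding membrane protein, was lower, at -0.91 ± 0.13 and -1.03 ± 0.13 (SE). In the isoprenoid branch 7 of 12 genes were higher and 1 lower with the HKDC1 plasmid, and 6 and 1 with empty vector. GGPS1, which makes geranylgeranyl pyrophosphate, was higher by 1.07 ± 0.13 and 1.01 ± 0.13. The uptake list of 12 genes had 5 higher and 7 lower with the HKDC1 plasmid, and 5 and 6 with empty vector. LRP8 was higher by 1.16 and 1.14 and VLDLR by 1.11 and 0.83. GRAMD1C was lower, at -1.89 and -1.98, as was NPC2, the lysosomal partner of NPC1, at -1.05 and -1.15. The LXR arm of 7 genes had 3 higher and 2 lower with the HKDC1 plasmid, and 3 and 1 with empty vector. NR1H2, the gene of LXR beta, was higher by 1.03 ± 0.11 and 1.34 ± 0.12, and RXRB was lower, at -0.46 ± 0.12 and -0.33 ± 0.12. All genes named here were called by edgeR in both comparisons, in a table in which 70.8% and 71.6% of genes were.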
